A study of Mus musculus with 22 samples.

Results

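The FK506-binding proteins (FKBPs) were followed in the lumbar spinal cord of mice with knee joint pain. The genes were chosen by symbol alone, and the 10 genes Fkbp5, Fkbp4, Fkbp8, Fkbp1a, Fkbp1b, Fkbp3, Fkbp2, Fkbp7, Fkbp9 and Fkbp10 were all found among the 17306 genes of the table. All 10 passed the filter on low values that left 16765 genes for testing. FKBPs are peptidyl-prolyl isomerases, enzymes that turn the bond before a proline in other proteins, and with the cyclophilins they make up the immunophilins, the receptors of immunosuppressive drugs. Fkbp5 encodes FKBP51, a co-chaperone that works with Hsp90 to lower the affinity of the glucocorticoid receptor for its hormone, while Fkbp4 encodes FKBP52, which favours receptor activity. Glucocorticoids induce Fkbp5, which closes a negative feedback loop on the stress response, and FKBP51 in the spinal cord is known for a part in long-lasting pain.

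SAFit2 is a ligand that blocks FKBP51 and spares FKBP52. It was given at 100 mg/kg in a slow-release phospholipid gel, and Vehicle mice received the empty gel. All 22 animals, wildtype C57BL6J mice aged 12 to 14 weeks at collection, had received 1 mg of monosodium iodoacetate (MIA), which damages the knee joint, so no uninjured group was part of the comparison. The groups were Early SAFit2 (5 mice), Early Vehicle (6 mice), Late SAFit2 (5 mice) and Late Vehicle (6 mice), with tissue taken on day 30. Early injections were on days -3 and 4 relative to MIA by the series design, although the treatment protocol gives days 3 and 4, and late injections were on days 20 and 27. For the 5 mice of the Early SAFit2 group the sample title names SAFit1 and the treatment label SAFit2, and the treatment label was followed. Early and late mice are labelled as separate batches, so time of treatment and batch cannot be told apart, and each SAFit2 group was compared with the Vehicle group of its own batch. The labels name L4-L6 spinal cord and the text of the study the dorsal horn on the injured side.

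Values are log2 CPM, that is the reads of a gene relative to the scaled total of its library, on the log2 scale. The reads behind them were recovered as whole numbers and came to between 11352989 and 24433349 per library. Members had from 20 reads (Fkbp10) to 7776 reads (Fkbp8) in a library, and no member was at 0 reads in any mouse. The libraries of the late mice differed in composition, while their reads on genes were not shown to differ (exact permutation p = 0.327). Bc1 reads were 3.31 to 16.5% of the total in Late SAFit2 and 1.32 to 7.55% in Late Vehicle mice (exact permutation p = 0.0519). The p-values of these library measures are not adjusted. The scaling factor was 0.774 to 0.946 in Late SAFit2 and 0.902 to 1.03 in Late Vehicle mice (exact permutation p = 0.00866), and mitochondrial reads made up 1.59 to 2.42% and 0.79 to 2.01% of the total (exact permutation p = 0.0152). The slope of expression on the GC content of transcripts, taken over all genes relative to the mean library, was -0.498 to -0.0536 log2 units per 10 percentage points in Late SAFit2 and -0.334 to 0.505 in Late Vehicle mice (exact permutation p = 0.0281). Markers of the cord's own cells were high in every group. Summed neuronal markers (10 of 10 in the table) ranged from 6460 to 8160 CPM in Late SAFit2 and from 5700 to 6740 CPM in Late Vehicle mice, and oligodendrocyte markers (8 of 8) from 19700 to 24400 and from 18400 to 22400 CPM. Schwann cell markers (4 of 4) spread from 1.26 to 2730 CPM within Late SAFit2 mice against 547 to 1270 CPM in Late Vehicle mice. Ependymal markers (6 of 6) ranged from 19.7 to 48.3 and from 31.3 to 65.7 CPM, and skeletal muscle markers (5 of 6) from 2.3 to 196 and from 1.68 to 4.24 CPM. No marker in the table was at 0 in every library, and the part of these differences in the results was not tested. In whole tissue, fewer cells of a type and less RNA per cell cannot be told apart.

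The sequences shown first are the opening coding bases of Fkbp8 and Fkbp7, the 2 members that passed the test in late mice, because these genes lie at the 2 ends of the family in base composition. Capitals mark G and C. The Fkbp8 stretch (plus strand, chr8:70529414-70529533) and the Fkbp7 stretch (minus strand, chr2:76672895-76673014) each lie in 1 exon, on GRCm38 with GENCODE M21.
Fkbp8: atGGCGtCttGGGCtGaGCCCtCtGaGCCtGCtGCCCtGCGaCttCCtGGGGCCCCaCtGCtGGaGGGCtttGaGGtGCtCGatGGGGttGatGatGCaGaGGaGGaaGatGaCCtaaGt
Fkbp7: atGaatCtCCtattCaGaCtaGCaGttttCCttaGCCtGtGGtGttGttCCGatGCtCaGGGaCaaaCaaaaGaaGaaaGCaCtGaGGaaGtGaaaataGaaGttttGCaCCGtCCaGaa
Of these 120 bases, 73 were G or C in Fkbp8 and 51 in Fkbp7. Over the whole transcript the GC content was 63.0% in Fkbp8, above 98.8% of the genes tested, and 42.0% in Fkbp7, above 10.2% of them. The other members ran from 43.8% in Fkbp3 to 57.8% in Fkbp2, around a median of 50.2% over the genes tested.

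Fkbp1a (FKBP12) and Fkbp1b (FKBP12.6) are close paralogs, so their reads could in principle be confused. Their first 90 coding bases, spliced, are shown with the differing bases in capitals (Fkbp1a on the plus strand within chr2:151542708-151557390, Fkbp1b on the minus strand within chr12:4834847-4841435, GRCm38).
Fkbp1a: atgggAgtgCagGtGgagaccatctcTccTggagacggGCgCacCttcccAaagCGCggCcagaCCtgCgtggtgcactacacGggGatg
Fkbp1b: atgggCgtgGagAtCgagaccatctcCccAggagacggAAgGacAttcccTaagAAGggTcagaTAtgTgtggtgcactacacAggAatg
The 2 genes differed at 20 of these positions. Over the 324 coding bases 74.7% were equal, and the longest stretch without a difference was 14 bases.

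The family fell into a high and a low group by level. Compared per kilobase of the longest RefSeq-paired transcript, Fkbp1a (149 ± 15 CPM per kilobase, SD, n = 22), Fkbp2 (142 ± 24.4), Fkbp3 (134 ± 31.1), Fkbp8 (123 ± 36.5) and Fkbp4 (107 ± 15.2) together held 93.4% of the family's summed level. The order among these 5 was not settled by the spread between mice, since the higher gene of a neighbouring pair was higher in 10 to 15 of 22 mice. Fkbp4 was above Fkbp1b (16.7 ± 2.53 CPM per kilobase) in 22 of 22 mice. Fkbp1b and Fkbp9 (15.5 ± 1.88) were not separated, with Fkbp1b higher in 12 of 22 mice. Fkbp5, the gene of the drug target, followed at 6.51 ± 1.18 CPM per kilobase and was below Fkbp9 in 22 of 22 mice. Fkbp7 (5.36 ± 2.46) was below Fkbp5 in 16 of 22 mice, and Fkbp10 (2.41 ± 0.747) was below Fkbp7 in 20 of 22. With the length of all exons of a gene in place of the transcript, Fkbp4 ranked first at 85.2 and Fkbp3, at 17.5 CPM per kilobase, was close to Fkbp1b at 16. Fkbp5 was then at 2.44 CPM per kilobase, below Fkbp7 at 3.1, so the ranks and the place of Fkbp3 in the high group depended on the length used.

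**Figure D1:**
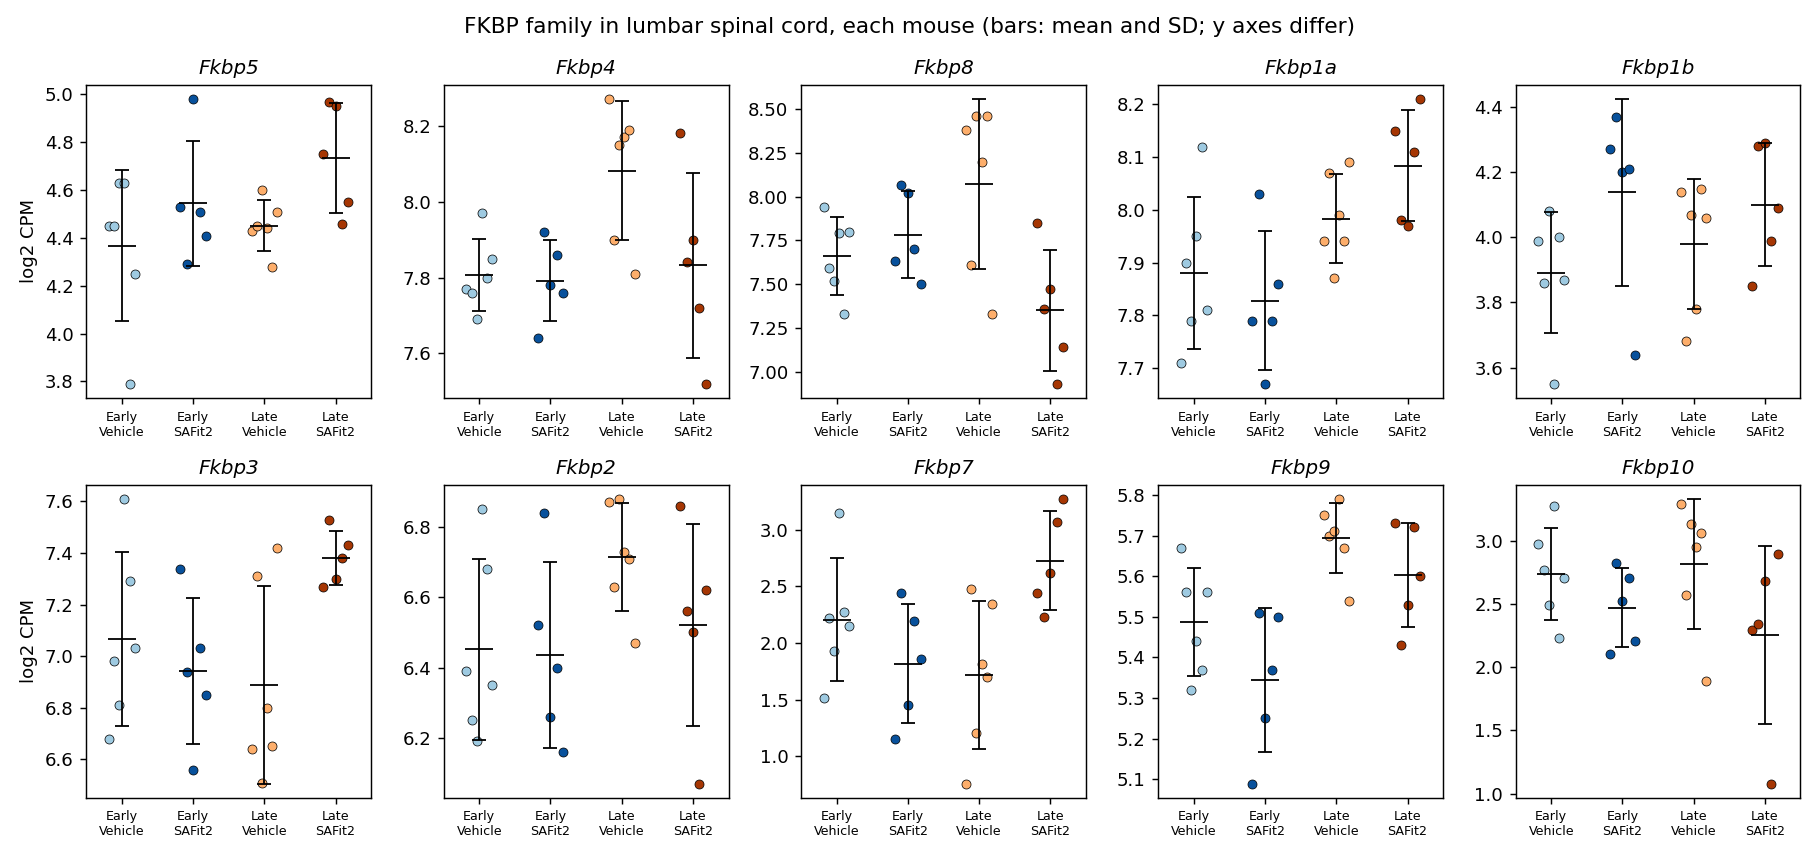
Log2 CPM of the 10 members in each of the 22 mice (points), with mean and SD of each group (bars) and a separate y axis per gene. Fkbp8 of Late Vehicle mice reached 8.46 while Late SAFit2 mice stayed at 7.85 or below, and every panel shows overlapping groups.

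In late mice, SAFit2 was compared with Vehicle to see which family members differed 3 days after the last injection. Fkbp8 was called lower and Fkbp7 higher in SAFit2 mice, and the other 8 members did not pass the test. Neither call held once each library's trend on GC content and transcript length was removed, nor in a fit of the 11 late mice alone. The 2 of 10 members called stood beside 12.1% of all genes tested (2021 of 16765) that met the same rule, an adjusted p under 0.05 with a change of at least 1.2-fold. At a nominal p under 0.05 it was 4 of 10 members, beside 34.5% of all genes. The median difference over the members was 0.00 on the log2 scale, with 5 higher and 5 lower, against a median of -0.05 over all genes tested. The groups of no member were free of overlap, while 1.71% of all genes had groups that did not overlap.

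Fkbp8 (Entrez 14232, plus strand, chr8:70527724-70535328) encodes FKBP38, a membrane-anchored protein of mitochondria that binds Bcl-2 and takes part in mitophagy. It was at 7.85, 7.36, 7.47, 6.93 and 7.14 log2 CPM in the 5 Late SAFit2 mice. In the 6 Late Vehicle mice the lowest value was 7.33, the median 8.29 and the highest 8.46. Late Vehicle replicates 2 and 6, at 7.61 and 7.33, lay among the SAFit2 mice, and the other 4 Vehicle mice lay above all of them. The means were 7.35 ± 0.35 (SD, n = 5) and 8.07 ± 0.48 (n = 6), a log2 fold change of -0.72 (SE 0.19, limma adjusted p = 0.0324). The exact permutation p was 0.0303. The same 2 Vehicle mice had the only negative GC slopes of their group, -0.170 and -0.334 log2 units per 10 percentage points, while the other 4 were between 0.262 and 0.505. After each library's trend on GC content and transcript length was removed, the log2 fold change of Fkbp8 was -0.02 (limma adjusted p = 0.948).

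Fkbp7 (Entrez 14231, minus strand, chr2:76663044-76673116) encodes FKBP23, a chaperone partner in the endoplasmic reticulum that binds BiP. Its values were 2.44, 2.23, 2.62, 3.07 and 3.27 log2 CPM in Late SAFit2 mice. Late Vehicle mice had a lowest value of 0.76, a median of 1.75 and a highest value of 2.48. The groups overlapped again through Late Vehicle replicates 2 and 6, at 2.48 and 2.34. The log2 fold change was 1.01 (SE 0.32, limma adjusted p = 0.0435, exact permutation p = 0.0216). Fkbp7 had 62 to 112 reads in Late SAFit2 and 37 to 95 reads in Late Vehicle mice, few enough for counting error to weigh more than in the abundant members. With GC content and length removed the log2 fold change was 0.54 (limma adjusted p = 0.381).

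Fkbp3, which encodes the nuclear, DNA- and RNA-binding FKBP25, lay just outside the threshold. The 5 Late SAFit2 mice were close together at 7.27, 7.53, 7.30, 7.38 and 7.43 log2 CPM. Late Vehicle mice had a lowest value of 6.51, a median of 6.72 and a highest value of 7.42. Late Vehicle replicates 2 and 6, at 7.31 and 7.42, were within the range of the SAFit2 mice, and the other 4 were below it. The log2 fold change was 0.50 (SE 0.17, limma adjusted p = 0.0508), and 0.12 with GC content and length removed (limma adjusted p = 0.596).

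Across the 10 members, the late log2 fold change declined with the GC content of the transcript (Pearson r = -0.93, Spearman rho = -0.87, n = 10 genes). The same relation over 16213 genes with a GC value had a Pearson r of -0.63. These correlations are across genes measured in the same libraries, which share their base composition trends, and serve as a description. After the correction the members ranged from -0.13 to 0.54 on the log2 scale, of which 1 of 10 (Fkbp5) had a nominal p under 0.05, with limma adjusted p = 0.145. Over all genes the corrected values gave 0 calls in limma, with 2222 of 16213 genes at a nominal p under 0.05. A treatment effect that itself tracked base composition would be taken out along with a library trend, and these cannot be told apart here. The call of Fkbp8 was lost when any 1 of Late Vehicle replicates 1, 3, 4 and 5 or Late SAFit2 replicates 2, 4 and 5 was left out, with an adjusted p of up to 0.101, while its log2 fold change stayed between -0.87 and -0.62 in all 22 fits that each left out 1 mouse. The call of Fkbp7 was lost in 12 of the 22 such fits, those without Late Vehicle replicate 1, 3, 4 or 5, Late SAFit2 replicate 2, 3, 4 or 5, Early Vehicle replicate 2 or 6, or Early SAFit2 replicate 4 or 5, with an adjusted p of up to 0.119 and a log2 fold change of 0.82 to 1.16 over all 22. The share of all genes called moved as well, from 1 gene without Late Vehicle replicate 1, 3, 4 or 5 or Late SAFit2 replicate 2 or 5 to 4971 genes without Late Vehicle replicate 6.

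**Figure D2:**
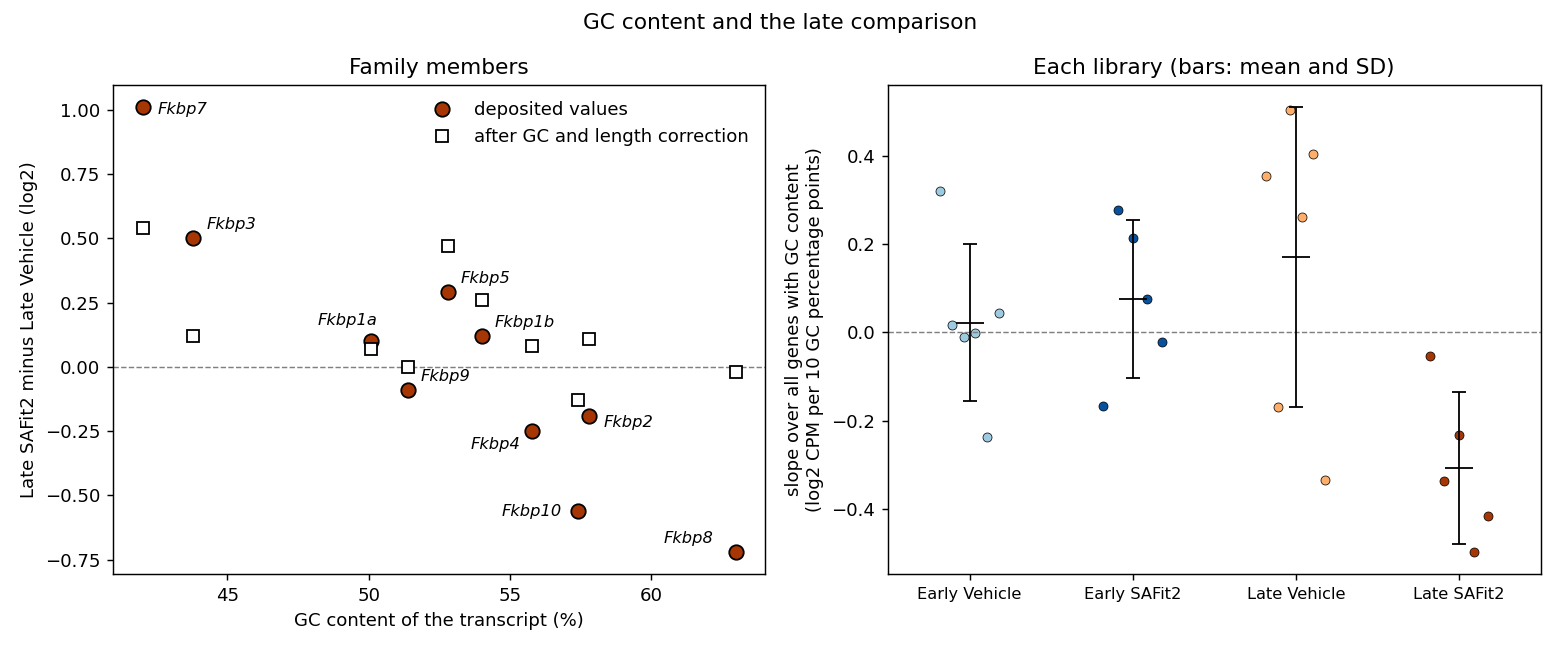
Left, log2 difference between Late SAFit2 and Late Vehicle mice for each member against the GC content of its transcript in percent, as deposited (circles) and after GC and length correction (squares). Right, slope of log2 CPM on GC content in each library (points) with mean and SD (bars). Fkbp7 and Fkbp8 sit at the ends of the declining circles, at 1.01 and -0.72, and Fkbp8 moves to -0.02 after correction.

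Fkbp5 (Entrez 14229, minus strand, chr17:28399094-28517527) and Fkbp4 (Entrez 14228, minus strand, chr6:128429735-128438677), the antagonistic co-chaperones of the glucocorticoid receptor, did not pass the adjusted test on the deposited values in any comparison. With library quality weights both passed in late mice (limma adjusted p = 0.03 for Fkbp5 and adjusted p = 0.0106 for Fkbp4). These weights called 6381 of 16765 genes in late mice, against 2021 as deposited. Fkbp4 also passed with library sizes that leave out Bc1 and mitochondrial genes (limma adjusted p = 0.0407, 2408 genes called). It passed without Late SAFit2 replicate 1 (limma adjusted p = 0.0275, 3537 genes called) and without Late Vehicle replicate 6 (adjusted p = 0.0316, 4971 genes called). With replicate numbers as blocks its limma adjusted p was 0.0497, with 4219 genes called. Those numbers do not pair the mice, and Late Vehicle replicate 6 had no partner. The block fit thus gave the same log2 fold change, -0.3, as the fit without that mouse. Fkbp5 was at 4.75, 4.97, 4.95, 4.46 and 4.55 log2 CPM in Late SAFit2 mice and had a lowest value of 4.28, a median of 4.45 and a highest value of 4.60 in Late Vehicle mice. Replicates 1, 2 and 3 of Late SAFit2 were above every Vehicle mouse, and replicates 4 and 5 were within their range. The log2 fold change was 0.29 (95% interval -0.02 to 0.59, limma adjusted p = 0.173), and 0.47 with GC content and length removed (nominal limma p of 0.00123, adjusted p = 0.145). On the deposited values the nominal limma p of Fkbp5 was 0.0658 and the exact permutation p 0.0238, neither adjusted over genes. Fkbp4 had a late log2 fold change of -0.25 (SE 0.11, limma adjusted p = 0.0997, exact permutation p = 0.0974), and 0.08 after the correction (limma adjusted p = 0.71). In early mice the log2 fold changes were 0.18 for Fkbp5 (95% interval -0.13 to 0.48) and -0.01 for Fkbp4 (95% interval -0.23 to 0.20), each with a limma adjusted p of 1.

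The balance between the 2 co-chaperones was followed as the log2 ratio of Fkbp5 to Fkbp4 within a library, in which the scaling of the library cancels. In Late SAFit2 mice the ratio was -3.43, -2.87, -2.95, -3.26 and -2.97. In Late Vehicle mice the lowest was -3.91, the median -3.64 and the highest -3.30. All SAFit2 mice except replicate 1 were above every Vehicle mouse. The ratio was 0.53 higher on the log2 scale in Late SAFit2 mice (exact permutation p = 0.00866, Benjamini-Hochberg adjusted p = 0.0476 over the 10 ratio tests made). It stayed between 0.48 and 0.62 when each late mouse was left out, with an exact permutation p of at most 0.0238, and was 0.40 with GC content and length removed (exact permutation p = 0.0195), where it no longer passed over the 10 ratio tests (Benjamini-Hochberg adjusted p = 0.0975). In early mice it was 0.19 higher with SAFit2 (exact permutation p = 0.405), and the early and late differences were not shown to differ (exact permutation p = 0.241). Averaged over early and late mice the ratio was 0.36 higher with SAFit2 (exact permutation p = 0.00952, adjusted p = 0.0476), and 0.29 higher after the correction (exact permutation p = 0.015, adjusted p = 0.0975). The ratio shows unequal change and not which of the genes changed. How often other gene pairs differ as much was not tested, and 34.5% of all genes had a nominal limma p under 0.05 in late mice.

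**Figure D3:**
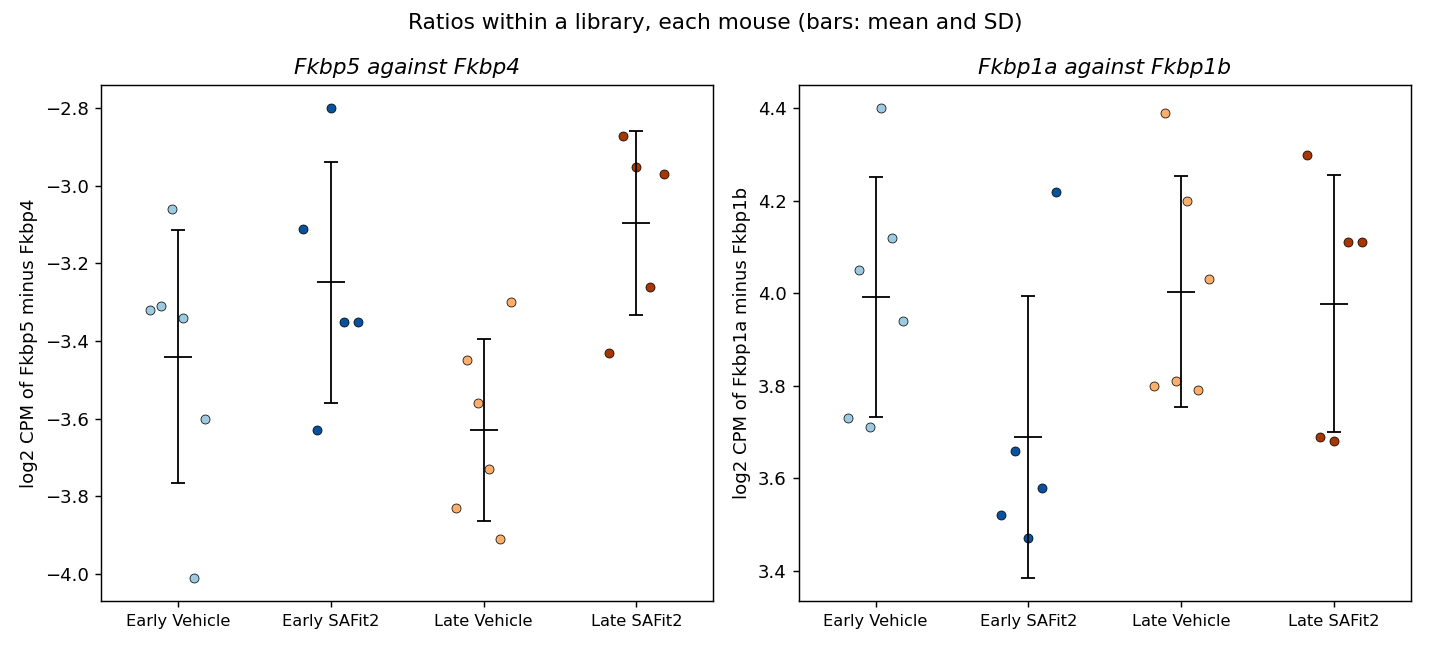
Log2 CPM of Fkbp5 minus that of Fkbp4 (left) and of Fkbp1a minus that of Fkbp1b (right) in each mouse, with mean and SD of each group. The left panel shows 4 of 5 Late SAFit2 mice above the highest Late Vehicle mouse, at -3.30, and the right panel shows overlapping groups throughout.

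Fkbp1a, whose protein FKBP12 binds FK506 and rapamycin and sits on calcium release channels and type I TGF-beta receptors, did not pass the test in either batch. Its late log2 fold change was 0.10 (95% interval -0.08 to 0.28) and its early one -0.05 (95% interval -0.23 to 0.13). Fkbp1b encodes FKBP12.6, which binds the cardiac calcium release channel. Its log2 fold change was 0.12 (95% interval -0.17 to 0.42) in late and 0.25 (95% interval -0.05 to 0.55) in early mice. Early SAFit2 replicate 5, at 3.64 log2 CPM, was far below the other 4 mice of its group, which lay between 4.20 and 4.37. The ratio of Fkbp1a to Fkbp1b was 0.30 lower on the log2 scale in Early SAFit2 than in Early Vehicle mice (exact permutation p = 0.11, Benjamini-Hochberg adjusted p = 0.367 over the ratio tests), and the difference was -0.02 in late mice (exact permutation p = 0.861). Without Early SAFit2 replicate 5, a mouse singled out after its value was seen, the early difference was -0.44, which is given with no test.

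The remaining members, Fkbp2, Fkbp9 and Fkbp10, encode proteins of the endoplasmic reticulum, and the last of them, FKBP65, assists the folding of collagen. Their late log2 fold changes were -0.19 for Fkbp2, -0.09 for Fkbp9 and -0.56 for Fkbp10, with limma adjusted p from 0.159 to 0.533. Fkbp10 spread widely, from 1.08 to 2.89 log2 CPM in Late SAFit2 and from 1.89 to 3.29 in Late Vehicle mice. Its 20 reads in Late SAFit2 replicate 4 were the fewest of any member.

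In early mice no member passed the test between SAFit2 and Vehicle at day 30. Limma called 0 of 10 members, beside 0.0% of all genes, and 0 of 10 had a nominal p under 0.05, beside 2.48% of all genes (416 of 16765). Limma voom on the recovered reads likewise called 0 genes, with 423 at a nominal p under 0.05. The members' log2 fold changes ran from -0.39 (Fkbp7) to 0.25 (Fkbp1b), with 3 higher and 7 lower. Fkbp8 was at 7.63, 8.07, 8.02, 7.70 and 7.50 log2 CPM in Early SAFit2 mice and from 7.33 to 7.94 in Early Vehicle mice, a log2 fold change of 0.12 (95% interval -0.26 to 0.51). The intervals of the less variable genes were narrow enough to bound the difference. That of Fkbp4 ended at -0.23 and 0.20, and that of Fkbp9 at -0.35 and 0.06.

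**Figure D4:**
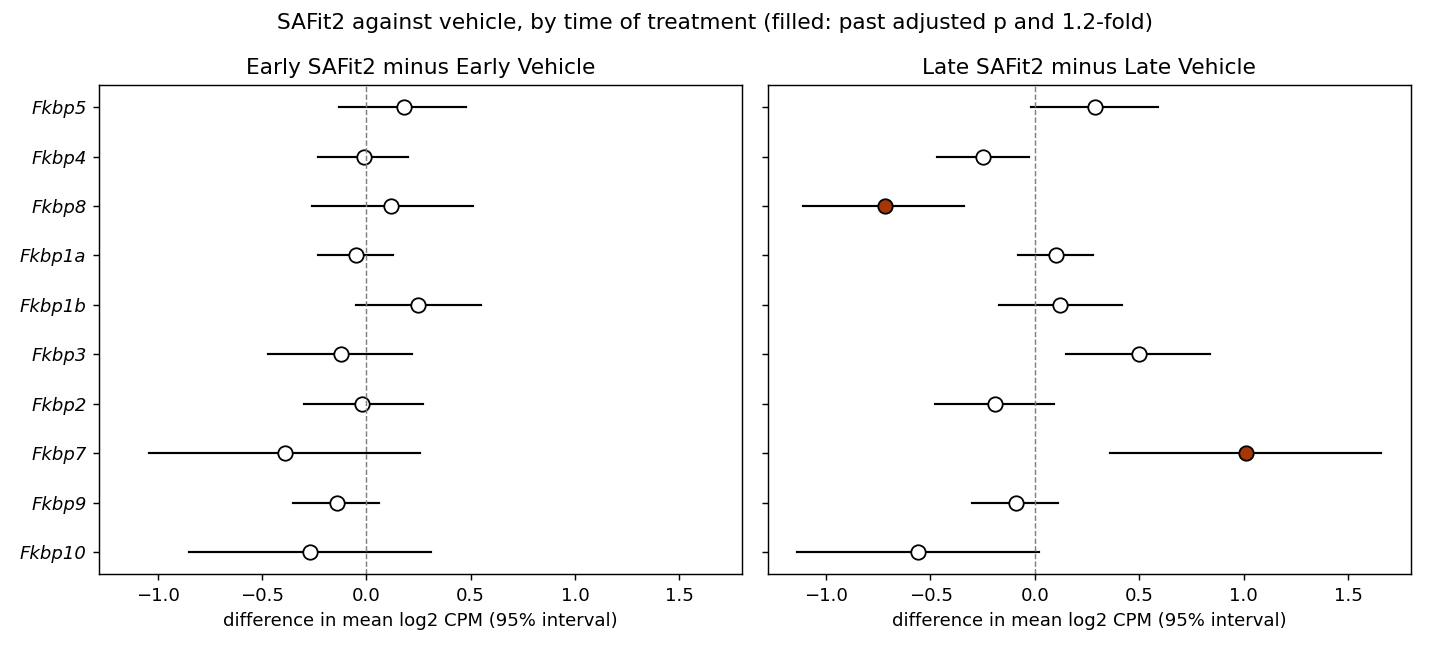
Difference in mean log2 CPM between SAFit2 and Vehicle mice for each member, in early (left) and late mice (right), with 95% intervals of the limma fit. Filled points met the rule of adjusted p under 0.05 with at least 1.2-fold, which held for Fkbp8 (-0.72) and Fkbp7 (1.01) in late mice and for no member in early mice.

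The early and the late effect were also compared directly. No member passed an adjusted p under 0.05, as held for 0.0% of all genes, and 3 of 10 had a nominal p under 0.05 beside 24.9% of all genes (4167 of 16765). The 3 were Fkbp8, with an early minus late difference of 0.85 (limma adjusted p = 0.12), Fkbp7 with -1.40 (limma adjusted p = 0.12) and Fkbp3 with -0.62 (limma adjusted p = 0.13). With GC content and length removed these were 0.06, -0.77 and -0.11, with limma adjusted p from 0.436 to 0.86. Limma voom also called 0 genes for this difference, with 4022 at a nominal p under 0.05.

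Taken as the mean of the early and late effects, SAFit2 mice had 3 of 10 members at a nominal limma p under 0.05, beside 13.2% of all genes (2215 of 16765). Fkbp5 was 0.23 higher on the log2 scale (exact permutation p = 0.0315), Fkbp8 differed by -0.30 (exact permutation p = 0.101) and Fkbp10 by -0.41 (exact permutation p = 0.0555). The value of Fkbp5 was no longer under a nominal limma p of 0.05 when Early SAFit2 replicate 3, Early Vehicle replicate 5 or 6, Late SAFit2 replicate 2 or 3, or Late Vehicle replicate 5 was left out (0.17 to 0.22), nor with library sizes without Bc1 and mitochondrial genes (0.19). None passed adjustment over all genes, with limma adjusted p of 0.352 to 0.375. With GC content and length removed Fkbp5 was 0.30 higher (nominal limma p of 0.00282, adjusted p = 0.467), while Fkbp8 was at 0.01 and Fkbp10 at -0.23. The corrected values also put Fkbp1b, 0.28 higher, at a nominal limma p of 0.00786 (adjusted p = 0.538). That made 2 of 10 members at a nominal limma p under 0.05 after the correction, beside 1178 of 16213 genes.

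Late Vehicle mice were compared with Early Vehicle mice as the background level against which the drug was read, a comparison in which batch cannot be told apart from time. No member passed the adjusted test, beside 9.11% of all genes (1527 of 16765), and 3 of 10 had a nominal p under 0.05, beside 24.3% of all genes. These were Fkbp4 (0.28 higher in late mice, limma adjusted p = 0.0845), Fkbp8 (0.41, limma adjusted p = 0.151) and Fkbp9 (0.21, limma adjusted p = 0.174). Limma voom called 1838 genes here. With library values centred on the median gene, Fkbp4 and Fkbp9 passed at 0.34 and 0.27, beside 2014 of 16765 genes called. With GC content and length removed Fkbp8 was 0.20 higher in Late Vehicle mice (limma adjusted p = 0.039), which is below the 1.2-fold rule. In that fit 1 of 10 members had an adjusted p under 0.05, beside 2984 of 16213 genes.

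As Fkbp5 is a classical glucocorticoid target, its variation between mice of a group was set against that of Tsc22d3 (GILZ), Sgk1 and Per1, which glucocorticoids also induce. Deviations from group means over 22 mice gave a Pearson r of 0.153 with Tsc22d3 (permutation p = 0.53, Spearman rho = 0.241, permutation p = 0.324). Pearson r was -0.131 with Sgk1 (permutation p = 0.568, rho = -0.123, permutation p = 0.596) and 0.134 with Per1 (permutation p = 0.526, rho = 0.128, permutation p = 0.56). The Benjamini-Hochberg adjusted p was 0.568 for each Pearson and 0.596 for each Spearman value over the 3 relations. Without the 2 mice farthest from the median of Fkbp5, r was 0.413, 0.0403 and 0.0604 in the same order. Within early mice r was -0.126 for Tsc22d3, -0.421 for Sgk1 and 0.156 for Per1, and within late mice 0.624, 0.218 and 0.133, with no test run within a batch. No relation over the 22 mice was detectable.

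The genes whose level over the 22 mice was most like that of Fkbp5, by Pearson r among 16764 other genes, were Eif2ak1 (0.82), Sgpp2 (0.79), Akap12 (0.77), B3galt5 (0.75) and Sema3a (0.75). Eif2ak1 encodes the haem-regulated eIF2alpha kinase, Sgpp2 a sphingosine-1-phosphate phosphatase, Akap12 an anchoring protein of protein kinase A and Sema3a a secreted axon guidance cue. Tsc22d3 ranked 4008, Sgk1 5708 and Per1 9552, and of 18 glucocorticoid-induced genes 9 had a positive r. The median r of these 18 genes was -0.02, the same as over all genes. Taken as deviations from group means, 7 of the 18 had a positive r, with a median of -0.16 against 0.01 over all genes. Within the family, Fkbp5 had r between -0.21 (Fkbp1a) and 0.22 (Fkbp1b). Taken as deviations from group means, r ran from -0.68 (Fkbp1a) to 0.29 (Fkbp10). After GC and length correction it ran from -0.07 (Fkbp9) to 0.54 (Fkbp3), with 0.48 for Fkbp2 and 0.42 for Fkbp1b. The strongest relations among members were between Fkbp4 and Fkbp8 (r = 0.77, and 0.74 after GC and length correction), between Fkbp3 and Fkbp7 (r = 0.74, and 0.36 after the correction) and between Fkbp3 and Fkbp8 (r = -0.74, and 0.46 after the correction). These are descriptions over 22 mice that share 4 groups and 2 batches.

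The promoter of Fkbp5 is shown because the gene's hormone response is usually assigned to distal elements, and the sequence lets the proximal part be read. It holds the 250 bases before the RefSeq start (minus strand, chr17:28486150-28486399, GRCm38.p6), with CCAAT boxes in capitals, read on either strand.
Fkbp5: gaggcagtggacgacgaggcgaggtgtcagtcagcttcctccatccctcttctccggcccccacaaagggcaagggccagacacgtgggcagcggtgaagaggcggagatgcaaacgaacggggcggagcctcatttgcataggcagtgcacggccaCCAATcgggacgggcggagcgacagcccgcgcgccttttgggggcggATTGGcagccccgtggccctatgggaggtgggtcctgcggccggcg
The box CCAAT occurred at 2 positions here and in the promoters of 4 of the 9 members with an entry (Fkbp2, Fkbp4, Fkbp5 and Fkbp8), against 33.8% of all 32851 RefSeq promoters. The 9 members had 11 promoters, and a member was counted if any of its promoters matched. The shares of all promoters are per promoter, so the units differ. The glucocorticoid receptor half-site TGTTCT, searched on both strands, was in 0 of the 9 members and in 16.1% of all promoters. The heat shock element core GAANNTTC was in Fkbp4 and in 6.69% of all promoters. The core of the full receptor site, ACANNNTGT, was in Fkbp7 and in 5.84% of all promoters. A match or its absence in these letters is a description and does not show binding.

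Among the other genes with an FKBP domain, 5 of 7 were in the table and 0 were called in the late comparison. The late log2 fold changes were 0.42 (Fkbp14), -0.56 (Fkbp11), -0.30 (Fkbp15) and -0.13 (Fkbpl), with limma adjusted p from 0.125 to 0.571. For the mean effect Fkbp11 alone of the 5 was under a nominal limma p of 0.05, at -0.47 (exact permutation p = 0.0132).

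The partners of the family were counted in the late comparison, in which 12.1% of all genes were called. Of 17 other prolyl isomerases, mostly cyclophilins, 2 rose and 1 fell. The spliceosomal Ppil3 was 0.57 higher (limma adjusted p = 0.0342) and Ppig 0.75 higher (adjusted p = 0.0399). Of the 18 genes of the Hsp90 and glucocorticoid receptor complex, 1 rose and 4 fell, with a median log2 fold change of 0.02. Hsp90aa1, the inducible Hsp90, was 0.57 higher (limma adjusted p = 0.046), the co-chaperone Sgta was at -0.61 (adjusted p = 0.0361) and the Hsp90-bound phosphatase Ppp5c at -0.42 (adjusted p = 0.0415).

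The ligand targets and clients moved in small numbers, beside the 12.1% of all genes called in late mice. Of the 12 genes of calcineurin and mTOR, on which the FK506 and rapamycin complexes of FKBP12 act, 2 rose, Ppp3r1 by 0.47 (limma adjusted p = 0.0416) and Rheb by 0.37 (adjusted p = 0.046). Of 11 genes of calcium release channels and type I TGF-beta receptors, Bmpr1a rose by 0.43 (limma adjusted p = 0.0406). Of 7 partners of FKBP38 in apoptosis and mitophagy, Fundc1 (0.48, limma adjusted p = 0.045) and Bnip3 (0.49, adjusted p = 0.0456) rose. Of 12 signalling partners of FKBP51, Gsk3b rose by 0.35 (limma adjusted p = 0.0439) and Akt1 was lower at -0.53 (adjusted p = 0.0415). Of 13 chaperones of the endoplasmic reticulum 3 rose, among them Dnajb9 (0.53, limma adjusted p = 0.0416) and Canx (0.42, adjusted p = 0.0431). Of 18 glucocorticoid-induced genes the connexin gene Gjb6 rose by 0.31 (limma adjusted p = 0.045), and of 12 genes of collagen maturation none passed (lowest adjusted p = 0.077). In early mice 0 genes of any of these lists were called, and with GC content and length removed 0 were called in late mice. The same held for all 16765 and 16213 genes tested, so these counts say nothing particular about the lists.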

How the data were processed

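RNA sequencing values of 22 mice (5 Early SAFit2, 6 Early Vehicle, 5 Late SAFit2, 6 Late Vehicle) were used, with groups from the labels. The deposited values are log2 CPM of 17306 genes. The authors aligned reads to mm10, counted them per gene and scaled library sizes, and the processing notes name Trimmomatic, HISAT2 and edgeR without versions. The floor of the values (-3.154) carries a mean prior count of 2 reads, so fold changes of genes with few reads are understated. Reads were recovered as whole numbers for 100.0% of values (tolerance 0.02 reads), and depth was 11352989 to 24433349 reads on genes per library. Intervals and tests cover the spread between mice.

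Differences were tested with limma 3.58.1 in R 4.3.3 on the deposited values (4 group means, variance trend, genes at log2 CPM of at least -1 in 5 libraries, 16765 genes), with Benjamini-Hochberg adjustment over all genes. Calls used an adjusted p under 0.05 and 1.2-fold, the difference between early and late effects an adjusted p alone, and the mean effect a nominal p under 0.05 after the study's methods. Single members and within-library ratios were compared by two-sided exact permutation (462 splits of a treated and a Vehicle group, 924 of both Vehicle groups, 213444 within timing). The smallest p that 462 splits allow is 0.00216. The correlations of Fkbp5 used 100000 resamples within groups. GC content and length were those of the longest RefSeq-paired transcript of GENCODE M21, with a value for 96.493% of genes, and each library's loess trend (span 0.5) was removed as an alternative. The limma steps were run on simulated reads with independent noise, and a GC trend was added only to check the correction. These runs check the code and do not show how reliable the calls are under the library differences seen here. Other tools were Python 3.11.15, numpy 2.4.6, scipy 1.17.1, pandas 2.3.3 and matplotlib 3.10.9.

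Genes named are the 10 members, the 7 other FKBP-domain genes where measured, the 2 genes of lowest p per direction of each partner list in the late comparison, and the 5 genes most like Fkbp5. Some genes that this rule names are not reported here. The members and the lists were chosen with earlier results of these data known. Promoters came from RefSeq for 9 of 10 members. That of Fkbp10 was not analysed here. Replicate numbers do not pair the mice.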

Additional observations from a re-analysis of the deposited data

Results flagged for a closer look

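In 1 of the 40 groups of a member's values a mouse lay far from the others: Fkbp1b in Early SAFit2 replicate 5 was at 3.64 log2 CPM, and the nearest of the other 4 mice was at 4.20. Chance alone flags about 1 in 20 groups. For 3 of the 10 members the early minus late difference had an exact permutation p under 0.05, with treatment labels shuffled within timing. That shuffling assumes no effect in either batch, so an effect in late mice alone can also give a small p. In limma 3 of 10 members likewise had a nominal p under 0.05 for this difference, beside 24.9% of all genes, so the share is near the background. The early minus late difference was -0.62 for Fkbp3 (exact permutation p = 0.0338, limma adjusted p = 0.13), -1.40 for Fkbp7 (exact permutation p = 0.0091, limma adjusted p = 0.12) and 0.85 for Fkbp8 (exact permutation p = 0.0172, limma adjusted p = 0.12). None passed adjustment over all genes, and with GC content and length removed the nominal limma p of these 3 was 0.396, 0.0541 and 0.578. The part of batch in them cannot be told apart from that of timing.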

How the results depend on the processing

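Over all genes the 2021 late calls became 876 with limma voom, 62 without a variance trend, 0 with only the 11 mice of the pair, 0 with GC and length correction, 6381 with library quality weights and 4219 with the replicate block, and ranged from 1 to 4971 when 1 mouse was left out, with 8 without Late SAFit2 replicate 4. The 2 members called in the late comparison became 1 with limma voom, 0 without a variance trend, 0 with only the 11 mice of the pair, 0 with GC and length correction and 6 with library quality weights. The 3 members counted for the mean effect became 1 without a variance trend and 7 with the weights, Fkbp5, Fkbp8 and Fkbp10 among them. With the weights 4 members were called for the early minus late difference and 4 for Late against Early Vehicle, where median centring called 2. Of all 16765 genes the weights gave 6396 for the mean effect, 5083 for early minus late and 5067 between Vehicle groups. Median centring called 2014 genes between Vehicle groups, and the fit without a variance trend counted 2047 for the mean effect. GC and length correction turned the mean effect of Fkbp8 to 0.01, and the relation of Fkbp5 with Per1 to r = -0.334 (permutation p = 0.152). Leaving out 1 mouse moved the count of members from 0 to 5 in the late comparison, 0 to 5 for the mean effect, 0 to 3 for early minus late and 0 to 2 between Vehicle groups, and kept it at 0 in early mice. No member was called in late mice without Late Vehicle replicate 1, 3, 4 or 5 or Late SAFit2 replicate 2, 4 or 5, and none counted for the mean effect without Late Vehicle replicate 5. The highest late, mean, early minus late and Vehicle counts came without Late Vehicle replicate 6, where 4971, 3780, 2513 and 2482 of 16765 genes passed. The ratio of Fkbp1a to Fkbp1b ranged from -0.44 to -0.22 in early and from -0.10 to 0.05 in late mice when 1 mouse was left out. With library sizes that leave out Bc1 and mitochondrial genes the median of all genes was -0.138 in the late comparison and 0.144 for early minus late, and the late calls split into 419 higher and 1989 lower, against 894 and 1127 as deposited. Replicate numbers did not pair the mice, with residual correlations of -0.236 to 0.317 in 10 pairs, of which 2 were over 0.1. With the replicate block 5 members were called in late mice and 3 for early minus late, beside 4219 and 1785 of 16765 genes. Replicate 6 of each Vehicle group had no partner in this fit and did not enter the comparison. With the block and GC correction together 0 members were called in late mice, beside 4 of 16213 genes, and the mean effect of Fkbp8 was 0.02. No paired analysis was possible for the Vehicle groups because numbers were blocked within timing. The planned prior count of 2 reads is that of the deposited values, so a prior count of 0.5 reads was chosen after seeing the data, and so was an uncorrected fit of the genes that have a GC value.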
